A study of Homo sapiens with 6 samples.

Results

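Poly(A) site use was described for 6 genes of the human microRNA machinery: DROSHA, XPO5, DICER1, AGO2, TNRC6A and TNRC6B. They were chosen by name, each with a window of hg19 coordinates on its own strand, and all 6 were covered by reads in every library. The windows were set against all 28114 groups of neighbouring poly(A) sites found in the genome, called units here. The cells were HEK293, a human embryonic kidney line. One library each came from cells given siRNA against CF Im25, siRNA against CF Im59, no siRNA, or a scrambled siRNA, and the RNA of these 4 libraries was fragmented by alkaline hydrolysis. A further pair, 1 library with siRNA against CF Im68 and 1 with the same scrambled siRNA, was fragmented with RNase I. The title of the CF Im68 library ends in a number, and whether it marks a further library or a further siRNA is not given. Every cell culture that received siRNA was harvested after 3 days. The 3 targeted proteins are subunits of cleavage factor Im, and the series was designed around this factor's role in setting 3' UTR length. All libraries come from 1 cell line with transient siRNA, and how much of each target protein remained was not analysed here.

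MicroRNAs are made in steps, and the 6 genes cover them in order. DROSHA is the nuclear ribonuclease that cuts the hairpin out of the primary transcript. XPO5 carries the hairpin to the cytoplasm, where the ribonuclease DICER1 trims it to a duplex. AGO2 holds the mature strand and can slice a perfectly paired target. TNRC6A and TNRC6B are scaffold proteins that bind Argonaute proteins and recruit the deadenylases that silence a target. Cleavage factor Im binds UGUA in the nascent RNA upstream of poly(A) sites and helps to choose which site is used. A site near the stop codon (proximal) gives a short 3' UTR and a later one (distal) a long 3' UTR.

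The sequences below set what a read measures and what 1 siRNA can pair with. Reverse transcription was primed at the junction of transcript and poly(A) tail, so a read is taken to end where the RNA was cleaved, followed by the 3' adaptor. Whether reads primed inside a transcript were removed is not given, so some ends may not be cleavage sites. In the adaptor line the capitals mark the 6 adenosines that come from the tail. In the siRNA lines the label's strand is in capitals throughout, and on its complement the capitals mark the seed (bases 2 to 8 from its 5' end).
3' adaptor junction: AAAAAAtggaattctcgggtgccaagg
CF Im68 siRNA, strand in the label: GACCGAGAUUACAUGGAUA
complementary strand: uAUCCAUGuaaucucgguc
The label's 19 bases occurred in 7 GENCODE 29 transcripts, all of CPSF6, the gene of CF Im68, and in 0 of the 85 annotated transcripts of the 6 genes. CATGGAT, the DNA match to the seed on the transcript strand, occurred in the longest annotated 3' UTR of DICER1, XPO5 and TNRC6B. It occurred in 10.3% of the 19115 genes with an annotated 3' UTR, in 24.8% of those within 20% of the length of DICER1's, 9.76% for XPO5 and 55.8% for TNRC6B. The match is a description of letters, and its part in the results was not tested. For CF Im25 and CF Im59 the labels give a catalogue number in place of a sequence, so their siRNAs were not analysed here.

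The values are counts of reads by the nucleotide of their 3' end, with 5351980 to 18183644 reads in a library. Ends within 25 nt of a peak were joined into a site, and a site was kept at a mean of at least 1 CPM over the 6 libraries. For this minimum, CPM was the count per 1000000 of all reads in a library. All other CPM values are counts per 1000000 reads in nuclear sites. The proximal share is the percentage of reads at the upstream one of the 2 most used sites of a window. A gene was called shifted when this share changed by at least 20 percentage points, with at least 50 reads over both sites in each library and a 95% interval of the difference that excluded 0. Its total was called when it differed by 2-fold in either direction, on at least 50 reads in 1 library and with an interval that did not span 1. A group held a single library, so replicate error and p-values could not be had, and the intervals cover the counting error of reads only. CF Im25 siRNA, CF Im59 siRNA and no siRNA were all compared with the same scrambled alkaline library, so these comparisons share their control. CF Im68 siRNA was compared with the scrambled RNase I library.

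The name of long 3' UTRs held for part of the set. The longest annotated 3' UTR in GENCODE 29 was 12567 nt for TNRC6B, 11888 nt for AGO2, 4270 nt for DICER1, 2420 nt for TNRC6A, 1538 nt for XPO5 and 935 nt for DROSHA, against a median of 1103 nt over all genes. TNRC6B and AGO2 lay at the 99.6th and 99.5th percentile of length, DICER1 at the 90.5th, TNRC6A at the 75.5th and XPO5 at the 60.6th. DROSHA, at the 45.1st percentile, had a 3' UTR below the median length. UGUA, searched on the transcript strand with overlapping matches counted, stood at 7.44 per kb in TNRC6A, 6.09 in DICER1, 5.65 in TNRC6B, 5.20 in XPO5, 4.79 in AGO2 and 2.14 in DROSHA. The median was 4.63 per kb over all 3' UTRs and 5.41 over the 5866 of at least 2000 nt. DROSHA held 2 UGUA in its annotated 3' UTR, and its density stood at the 24.1st percentile of all genes. The 2249 3' UTRs within 20% of its length had a median of 4.53 per kb. The hexamer AAUAAA was found 17 times in TNRC6B, 8 times in AGO2, 5 times in DICER1, 3 times in DROSHA and 2 times in TNRC6A. It was found 0 times in XPO5, where 85.2% of 3' UTRs of similar length held at least 1. A missing hexamer says only that these letters are not in that stretch.

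After CF Im25 siRNA, 3 of the 6 genes, DROSHA, XPO5 and DICER1, shifted to the proximal site, where 18.3% of 6702 tested units did so. None of the 6 shifted to the distal site, against 2.81% of units. After CF Im68 siRNA, DICER1 and XPO5 shifted to the proximal site (2 of 6, against 24.4% of 5291 units), and TNRC6A shifted to the distal one (1 of 6, against 1.78% of units). The 2 sites of a gene were taken over its whole window, while the background uses the 2 most used sites of a unit. With the unit of most reads in each window, DICER1, AGO2, XPO5 and TNRC6B were called proximal after CF Im68 siRNA (4 of 6), TNRC6A was again called distal, and the proximal calls after CF Im25 siRNA were again DROSHA, XPO5 and DICER1. After CF Im59 siRNA 0 of 6 were called shifted, where 2.53% of 6889 units moved to the proximal and 4.76% to the distal site. Without siRNA 0 of 6 were called, against 1.21% and 2.52% of 7177 units. The median change over the 6 genes was 10.4 points after CF Im25 siRNA, 3.75 after CF Im59 siRNA, 0.48 without siRNA and 4.54 after CF Im68 siRNA. The median over all tested units was 4.19, -1.19, -1.15 and 5.51 points in the same order. With the unit of most reads in each window, the genes' median was 24.1 points after CF Im25 siRNA, over the 5 genes with enough reads, and 36.2 points after CF Im68 siRNA, over all 6. These medians thus depend on how the pair is taken. Whether the 6 genes differ from other units was not tested.

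The 2 scrambled libraries differed in fragmentation and in site use, and this bears on every value set across methods. The scrambled RNase I library had a proximal share of 15.8% for DICER1, against 2.97% in the scrambled alkaline library. TNRC6A stood at 83.8% in the RNase I library and 41.8% in the alkaline one, and DROSHA at 82.2% and 50.6%. XPO5 stood at 52.0% in the RNase I library and 67.2% in the alkaline one, TNRC6B at 37.7% and 87.0%, and AGO2 at 19.4% and 84.1%. For these whole-window pairs, the gap was thus wider for DROSHA, TNRC6A, TNRC6B and AGO2 than the change measured for them after any siRNA. By the pair of the unit with most reads, AGO2 stood at 4.40% in the RNase I library and 41.2% (of 17 reads) in the alkaline one. TNRC6B stood at 16.7% and 2.09% by that pair. Their changes after CF Im68 siRNA were then +63.6 and +45.3 points, so the gap was not the wider one there. Fragmentation and the other differences between these 2 preparations cannot be told apart, and changes are given only within a method.

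**Figure D1:**
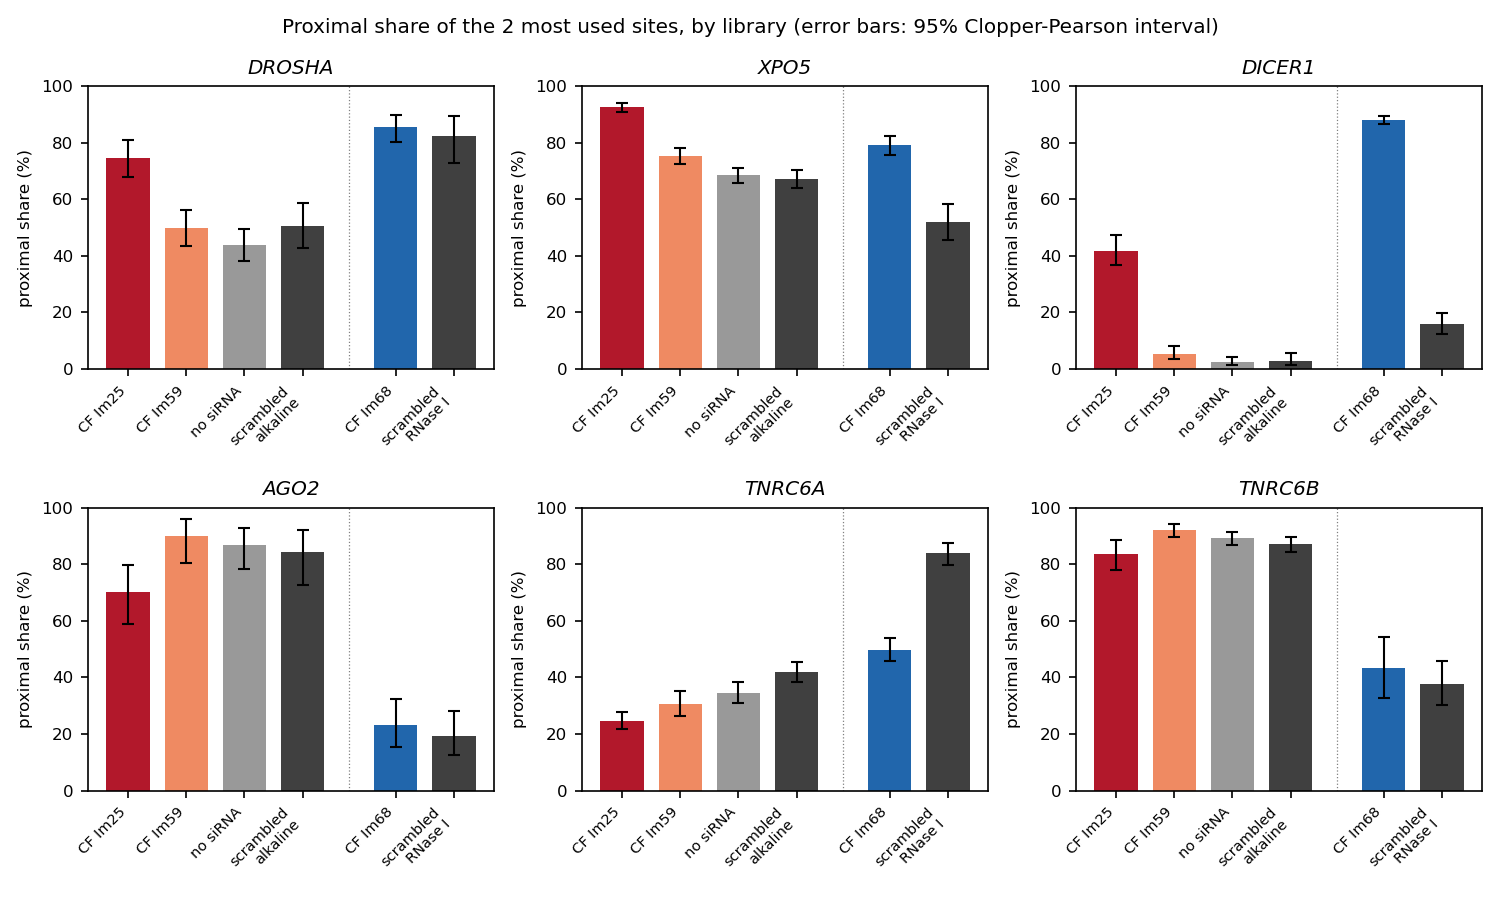
Proximal share (percent of reads at the upstream of the 2 most used sites) for each gene in each library, with 95% Clopper-Pearson intervals that cover counting error only; the dotted line separates alkaline libraries (left) from RNase I libraries (right). DICER1 stands at 41.9% in the CF Im25 library and 88.0% in the CF Im68 library, above the other bars of its panel, and TNRC6A stands at 49.8% after CF Im68 siRNA, below its scrambled bar of 83.8%.

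DROSHA, the nuclear ribonuclease of the first step, was called shifted by its pair after CF Im25 siRNA, between sites a short distance apart. Its window was chromosome 5, minus strand, 31399000 to 31533000, and its 2 most used sites lay 148 nt apart, at 31401408 (proximal) and 31401260 (distal). The proximal share was 74.7% of 186 reads after CF Im25 siRNA, 49.8% of 251 after CF Im59 siRNA, 43.8% of 324 without siRNA and 50.6% of 162 with scrambled siRNA. The CF Im25 library thus stood above the 3 other alkaline libraries, whose intervals overlapped each other. In the RNase I pair it was 85.4% of 239 reads after CF Im68 siRNA and 82.2% of 90 with scrambled siRNA. The change was +24.1 points after CF Im25 siRNA (95% interval 14.0 to 33.6). It was -0.82 points after CF Im59 siRNA (-10.6 to 8.97) and +3.13 after CF Im68 siRNA (-5.11 to 13.1), so neither interval excluded 0. As a share of the whole window, the proximal site held 51.1% after CF Im25 siRNA and 33.7% with scrambled siRNA, +17.4 points (8.82 to 25.5). It held 63.4% after CF Im68 siRNA, against 44.6% with scrambled siRNA, +18.8 points (9.46 to 27.7). These shares depend on the 25 nt used to join ends, and with 10 nt the proximal site held 27.3% after CF Im68 siRNA and 16.9% with scrambled siRNA.

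Another DROSHA site, the last one kept, lay 656 nt downstream of the distal one, at 31400604. It held 2.57% of the window's reads after CF Im25 siRNA, 9.49% after CF Im59 siRNA, 12.4% without siRNA and 10.3% with scrambled siRNA. The CF Im68 library had 1.24% there, against 6.63% in its scrambled library, on 4 and 11 reads. The share of the last site changed by -7.71 points (-12.4 to -3.55) after CF Im25 siRNA and by -5.38 points (-10.3 to -1.92) after CF Im68 siRNA. The read-weighted mean distance of the terminal ends from this last site was 739 nt after CF Im25 siRNA, 636 nt after CF Im59 siRNA, 604 nt without siRNA and 633 nt with scrambled siRNA. The RNase I libraries gave 769 nt after CF Im68 siRNA and 693 nt with scrambled siRNA. The remaining kept site, 66592 nt upstream of the last one, held 8.82% after CF Im25 siRNA and 8.97% after CF Im59 siRNA, against 2.06% with scrambled siRNA, on 24, 35 and 5 reads. Without siRNA it held 3.74%. It held 0.31% after CF Im68 siRNA and 3.01% in the scrambled RNase I library.

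XPO5, the exporter of the hairpins, shifted to its proximal site with siRNA against CF Im25 and against CF Im68. Its window was chromosome 6, minus strand, 43489000 to 43544000, with the pair at 43491585 (proximal) and 43490077 (distal), 1508 nt apart. The proximal share was 92.5% of 1135 reads after CF Im25 siRNA, 75.3% of 955 after CF Im59 siRNA, 68.5% of 1284 without siRNA and 67.2% of 865 with scrambled siRNA. The CF Im68 library stood at 79.1% of 604 reads, against 52.0% of 248 in its scrambled library. All 3 siRNAs against the complex gave shares above those of their scrambled library. The changes were +25.3 points (21.9 to 28.8) after CF Im25 siRNA, +8.12 (3.96 to 12.3) after CF Im59 siRNA, +1.29 (-2.71 to 5.34) without siRNA and +27.1 (20.1 to 34.0) after CF Im68 siRNA. The change after CF Im59 siRNA was under the 20 points of the call.

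Both ends of the XPO5 pair differed from the scrambled library. The distal site had 8.79 CPM after CF Im25 siRNA and 32.7 CPM with scrambled siRNA, a ratio of 0.269 (0.208 to 0.343). The proximal site had 108.6 CPM after CF Im25 siRNA and 66.9 CPM with scrambled siRNA, a ratio of 1.62 (1.46 to 1.80). The distal site had 11.5 CPM after CF Im68 siRNA, against 25.4 CPM with scrambled siRNA, and the proximal site 43.6 CPM, against 27.5 CPM. Loss at one end thus came with gain at the other, and the total of the window after these siRNAs was 1.13 times (CF Im25) and 0.97 times (CF Im68) that of the scrambled library. Upstream sites 14817 and 32104 nt before the last one held 6.59% and 6.65% of the window after CF Im25 siRNA, against 7.23% and 11.6% with scrambled siRNA. They lie outside the annotated length of the last exon, and which transcripts they end was not analysed here.

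DICER1, the cytoplasmic ribonuclease, gave the widest changes in proximal share of the 6 genes with siRNA against CF Im25 or CF Im68. Its window was chromosome 14, minus strand, 95551000 to 95625000. The proximal site at 95556662 lay 4096 nt before the distal one at 95552566, close to the annotated 3' UTR length of 4270 nt. The proximal share was 41.9% after CF Im25 siRNA (147 of 351 reads), 5.42% after CF Im59 siRNA (23 of 424), 2.65% without siRNA (15 of 567) and 2.97% with scrambled siRNA (8 of 269). It was 88.0% after CF Im68 siRNA (1622 of 1843 reads), against 15.8% (61 of 386) with scrambled siRNA. The CF Im25 and CF Im68 libraries stood far above the other 4, whose shares ran no higher than 15.8%. The change was +38.9 points after CF Im25 siRNA (33.1 to 44.3) and +72.2 after CF Im68 siRNA (67.9 to 75.8). It was +2.45 after CF Im59 siRNA (-0.86 to 5.42) and -0.33 without siRNA (-3.30 to 1.89). Of all tested units, 5.07% changed further than DICER1 toward the proximal site in the CF Im25 comparison and 1.19% in the CF Im68 comparison.

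**Figure D2:**
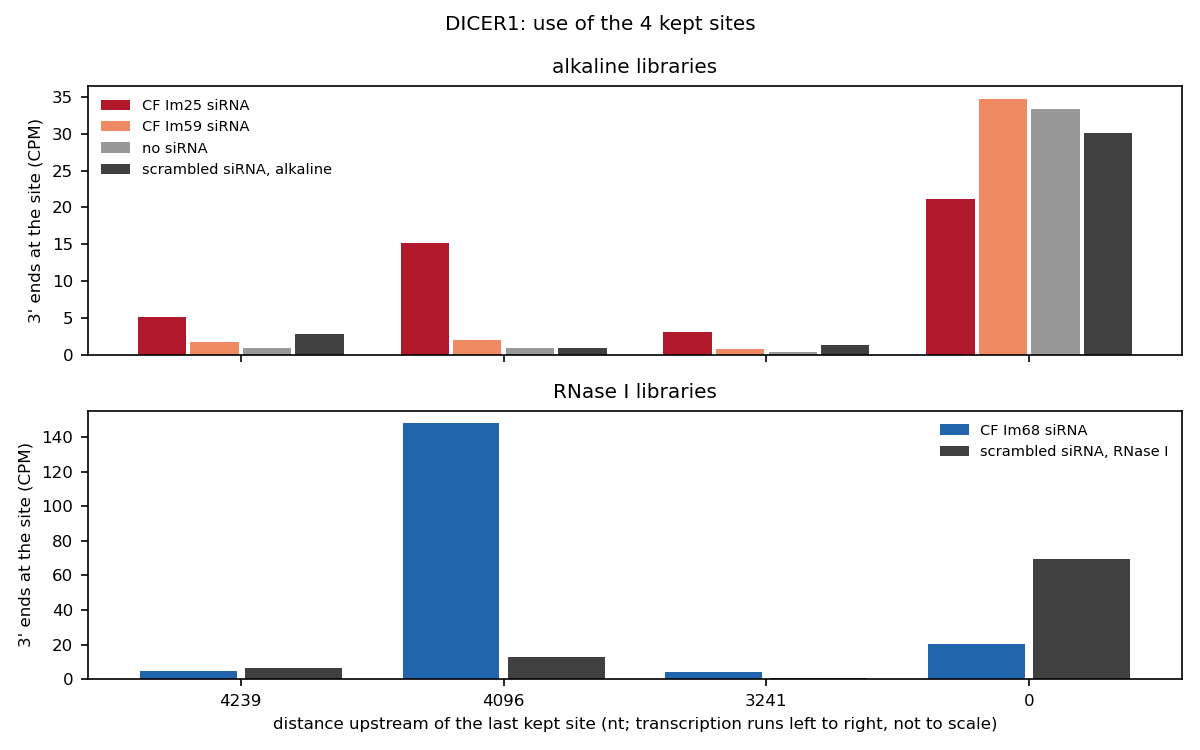
CPM at the 4 kept DICER1 sites, by distance upstream of the last kept site, in the alkaline libraries (top) and the RNase I libraries (bottom); bars are single libraries without error bars. The site at 4096 nt stands at 148 CPM after CF Im68 siRNA and 13.0 CPM in its scrambled library, while the last site stands at 20.2 and 69.3 CPM.

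The gain at the proximal DICER1 site after CF Im68 siRNA was larger than the loss at the distal one. The proximal site had 148 CPM after CF Im68 siRNA and 13.0 CPM with scrambled siRNA, a ratio of 11.4 (8.81 to 14.9). The distal site had 20.2 CPM after CF Im68 siRNA and 69.3 CPM with scrambled siRNA, a ratio of 0.291 (0.244 to 0.346). After CF Im25 siRNA the proximal site had 15.2 CPM, against 0.92 CPM, and the distal site 21.1 CPM, against 30.1 CPM. The total of the window was 189.7 CPM after CF Im68 siRNA and 101 CPM with scrambled siRNA, a ratio of 1.88 (1.70 to 2.08), which is under the 2-fold call. It was 49.5 CPM after CF Im25 siRNA and 44.8 CPM with scrambled siRNA. The mean distance of the ends from the last site was 3615 nt after CF Im68 siRNA and 925 nt in its scrambled library. It was 2109 nt after CF Im25 siRNA, 451 nt after CF Im59 siRNA, 234 nt without siRNA and 560 nt with scrambled siRNA.

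The ends of DICER1 differed in how they spread over nucleotides. At the distal site a single nucleotide held 97.2% to 100% of the reads in the 6 libraries, spread over 1 to 4 positions. At the proximal site the leading nucleotide held 34.0% of the reads after CF Im25 siRNA, over 15 positions, and 49.3% after CF Im68 siRNA, over 23 positions. Proximal reads thus ended at many positions and distal reads at nearly 1. A neighbouring site, 4239 nt before the last one, had 5.07 CPM after CF Im25 siRNA and 2.77 CPM with scrambled siRNA, and 4.93 CPM after CF Im68 siRNA and 6.61 CPM with its scrambled siRNA. An internal site 3241 nt before the last had 3.10 CPM after CF Im25 siRNA and 1.27 CPM with scrambled siRNA. The same site had 3.83 CPM after CF Im68 siRNA, against 0.43 CPM with scrambled siRNA, on 42 and 2 reads.

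AGO2, the slicing Argonaute, was not called shifted by its 2 most used sites, which lie far apart in the window. Its window was chromosome 8, minus strand, 141539000 to 141646000. The 2 most used sites were 141643020 (proximal) and 141541457 (distal), 101563 nt apart, so the share compares an early upstream end with a site near the downstream end of the window. Sites were not assigned to exons. It was 70.0% of 80 reads after CF Im25 siRNA, 90.0% of 70 after CF Im59 siRNA, 86.6% of 97 without siRNA and 84.1% of 63 with scrambled siRNA. The RNase I pair gave 23.1% of 104 reads after CF Im68 siRNA and 19.4% of 108 with scrambled siRNA. The change was -14.1 points (-27.0 to -0.00275) after CF Im25 siRNA, +5.87 (-5.72 to 17.9) after CF Im59 siRNA and +3.63 (-7.38 to 14.6) after CF Im68 siRNA. The early end had 5.79 CPM after CF Im25 siRNA and 6.11 CPM with scrambled siRNA, a ratio of 0.948 (0.640 to 1.41). The distal site had 2.48 CPM after CF Im25 siRNA and 1.15 CPM with scrambled siRNA, on 24 and 10 reads.

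The AGO2 window stops short of the annotated 3' UTR length. After seeing this, the window was extended downstream by 11888 nt, and 6 further kept sites were found between 141530256 and 141533176, here the downstream group. The 5 kept sites between 141541319 and 141541873 form the near group. That the downstream ends belong to AGO2 was not shown by an annotation of this build. The near group had 24.6 CPM after CF Im25 siRNA, 4.68 after CF Im59 siRNA, 3.63 without siRNA and 5.65 with scrambled siRNA. The CF Im25 library was thus 4.36 times the scrambled one (3.19 to 6.06), and the other alkaline libraries lay under the scrambled level. The downstream group had 45.6 CPM after CF Im25 siRNA, 50.6 after CF Im59 siRNA, 44.1 without siRNA and 54.4 with scrambled siRNA.

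The AGO2 groups of the RNase I pair moved in opposite directions. The near group had 35.7 CPM after CF Im68 siRNA and 21.5 CPM with scrambled siRNA, a ratio of 1.66 (1.33 to 2.08). The downstream group had 7.94 CPM after CF Im68 siRNA and 48.2 CPM with scrambled siRNA, a ratio of 0.165 (0.127 to 0.212), or 6.07-fold lower. The near group's share of both groups was 35.1% after CF Im25 siRNA, 8.48% after CF Im59 siRNA, 7.59% without siRNA and 9.40% with scrambled siRNA. In the RNase I libraries it was 81.8% after CF Im68 siRNA and 30.9% with scrambled siRNA. The differences were +25.6 points (21.2 to 29.9) after CF Im25 siRNA, -0.93 (-4.33 to 2.35) after CF Im59 siRNA and +50.9 (44.5 to 56.6) after CF Im68 siRNA. Since these groups were formed after the values were seen, they are a description and carry no call.

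Within the near group the order of sites also changed in the RNase I pair. The site at 141541457 had 7.30 CPM after CF Im68 siRNA and 18.6 CPM with scrambled siRNA. The site at 141541873, 416 nt upstream of it, had 15.5 CPM after CF Im68 siRNA and 0.85 CPM with scrambled siRNA, on 170 and 4 reads. Its share of these 2 sites was 68.0% after CF Im68 siRNA and 4.40% with scrambled siRNA, +63.6 points (54.8 to 69.7). In the alkaline libraries the same pair had 87 reads after CF Im25 siRNA and 17 to 33 reads in the others, too few for the rule of 50. Its upstream site held 41.2% of them with scrambled siRNA, 60.6% without siRNA, 69.6% after CF Im59 siRNA and 72.4% after CF Im25 siRNA. The site at 141541457 had 0.61 to 2.48 CPM in these libraries. In this pair the scrambled RNase I library, at 4.40%, thus stood apart from all the others, the CF Im68 library included. The scrambled RNase I library held 94.3% of its reads at 141541457 on 1 nucleotide.

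**Figure D3:**
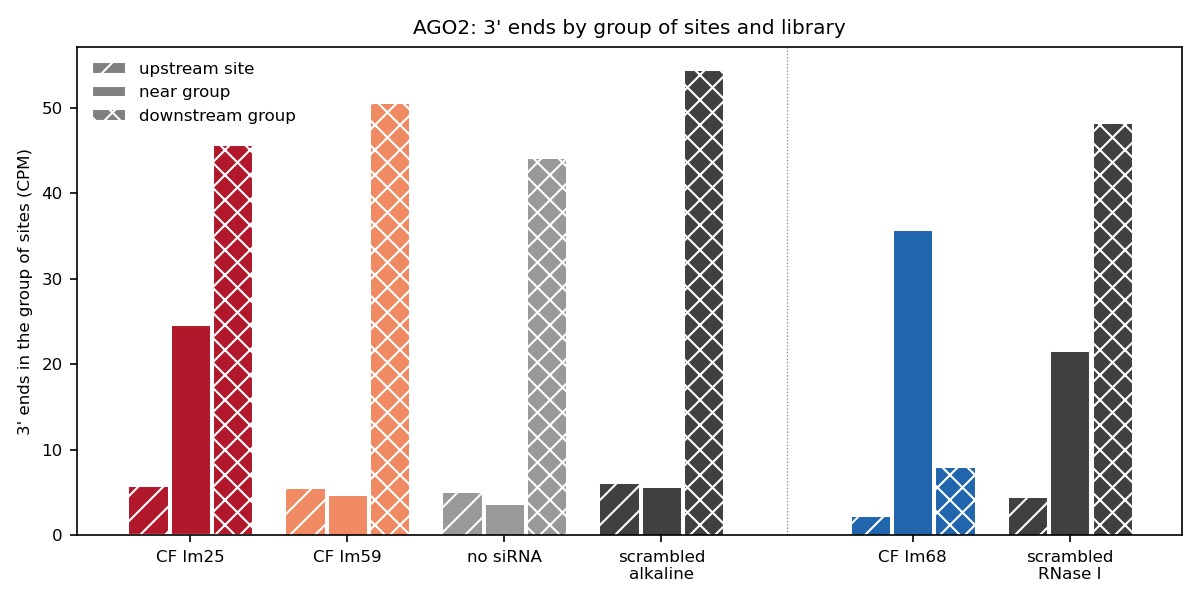
CPM in the 3 groups of AGO2 sites in each library: the upstream site, the near group (5 sites) and the downstream group (6 sites outside the window); bars are single libraries without error bars, and the dotted line separates alkaline from RNase I libraries. The downstream group stands at 7.94 CPM after CF Im68 siRNA and at 44.1 to 54.4 CPM in the other 5 libraries. The near group stands at 35.7 CPM after CF Im68 siRNA and 21.5 CPM in its scrambled library. It stands at 24.6 CPM after CF Im25 siRNA and 5.65 CPM in the scrambled alkaline library.

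TNRC6A, a scaffold of the silencing complex, ran the other way from DICER1 and XPO5. Its window was chromosome 16, plus strand, 24741000 to 24839000, with the pair at 24836197 (proximal) and 24836778 (distal), 581 nt apart. The proximal share was 24.6% of 856 reads after CF Im25 siRNA, 30.6% of 458 after CF Im59 siRNA, 34.6% of 619 without siRNA and 41.8% of 741 with scrambled siRNA. The CF Im68 library had 49.8% of 619 reads at the proximal site, against 83.8% of 377 with scrambled siRNA. The change after CF Im68 siRNA was -34.1 points (-39.2 to -28.4), a call to the distal site, and 0.34% of tested units changed further in that direction. The other changes were -17.2 points (-21.7 to -12.6) after CF Im25 siRNA, -11.3 (-16.7 to -5.67) after CF Im59 siRNA and -7.26 (-12.4 to -2.07) without siRNA. All of them were under 20 points, and the scrambled alkaline library had the highest share of the 4 alkaline ones. Against no siRNA the change after CF Im25 siRNA was -9.92 points (-14.7 to -5.21) and after CF Im59 siRNA -4.00 (-9.57 to 1.68).

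At the TNRC6A distal site the level was 66.7 CPM after CF Im25 siRNA, 27.6 after CF Im59 siRNA, 24.5 without siRNA and 49.7 with scrambled siRNA. It was 28.4 CPM after CF Im68 siRNA and 13.0 CPM in its scrambled library, a ratio of 2.18 (1.65 to 2.92). The proximal site had 28.1 CPM after CF Im68 siRNA and 67.4 CPM with scrambled siRNA, a ratio of 0.417 (0.355 to 0.489). The longer end therefore gained and the shorter one lost within this pair. An upstream site 75452 nt before the last one held 18.6% of the window's reads after CF Im68 siRNA and 19.8% with scrambled siRNA. In the alkaline libraries it held 2.06% after CF Im25 siRNA, 3.11% after CF Im59 siRNA, 3.94% without siRNA and 6.20% with scrambled siRNA. With ends joined over 10 nt in place of 25, this upstream site held 7.48% after CF Im68 siRNA and 8.70% with scrambled siRNA, and 0.722% to 2.07% in the alkaline libraries, so its size depends on that width.

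TNRC6B, the other scaffold, has the longest annotated 3' UTR of the 6 and was not called shifted. Its window was chromosome 22, plus strand, 40440000 to 40733000, and its pair at 40719782 (proximal) and 40731482 (distal) lay 11700 nt apart. The proximal share was 83.7% of 203 reads after CF Im25 siRNA, 92.1% of 643 after CF Im59 siRNA, 89.1% of 771 without siRNA and 87.0% of 647 with scrambled siRNA. In the RNase I pair it was 43.2% of 88 reads after CF Im68 siRNA and 37.7% of 159 with scrambled siRNA. The proximal site was the main end in all alkaline libraries, and the changes lay between -3.27 points after CF Im25 siRNA (-9.44 to 1.98) and +5.45 after CF Im68 siRNA (-7.08 to 18.1). After CF Im59 siRNA the change was +5.05 points (1.71 to 8.41).

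Both sites of the TNRC6B pair had fewer CPM than in the scrambled library of the same method, after each siRNA and without siRNA. The proximal site had 17.6 CPM after CF Im25 siRNA and 64.9 CPM with scrambled siRNA, a ratio of 0.271 (0.227 to 0.322). The distal site had 3.41 CPM after CF Im25 siRNA and 9.68 CPM with scrambled siRNA. With CF Im68 siRNA the proximal site had 3.47 CPM, against 12.8 CPM with scrambled siRNA, and the distal site 4.56 CPM, against 21.1 CPM. After CF Im59 siRNA the ratio to scrambled siRNA was 0.791 (0.704 to 0.890) at the proximal and 0.457 (0.316 to 0.655) at the distal site. Without siRNA it was 0.640 (0.572 to 0.717) at the proximal and 0.525 (0.383 to 0.719) at the distal site. A share of the pair does not show this, since both of its sites were lower together. The next site upstream of the proximal one, at 40719659, went the other way after CF Im68 siRNA. That site had 5.66 CPM after CF Im68 siRNA and 2.56 CPM with scrambled siRNA, a ratio of 2.21 (1.18 to 4.51), on 62 and 12 reads. Its ratio was 0.823 (0.329 to 2.04) after CF Im25 siRNA and 0.565 (0.210 to 1.46) after CF Im59 siRNA. Without siRNA the ratio was 0.525 (0.216 to 1.28). Among these neighbours the upstream one took 45.3 points more (31.2 to 56.6) after CF Im68 siRNA. Taken by the unit rule used for the rest of the genome, this is the pair of TNRC6B, and with it the gene would be called shifted to the proximal site.

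**Figure D4:**
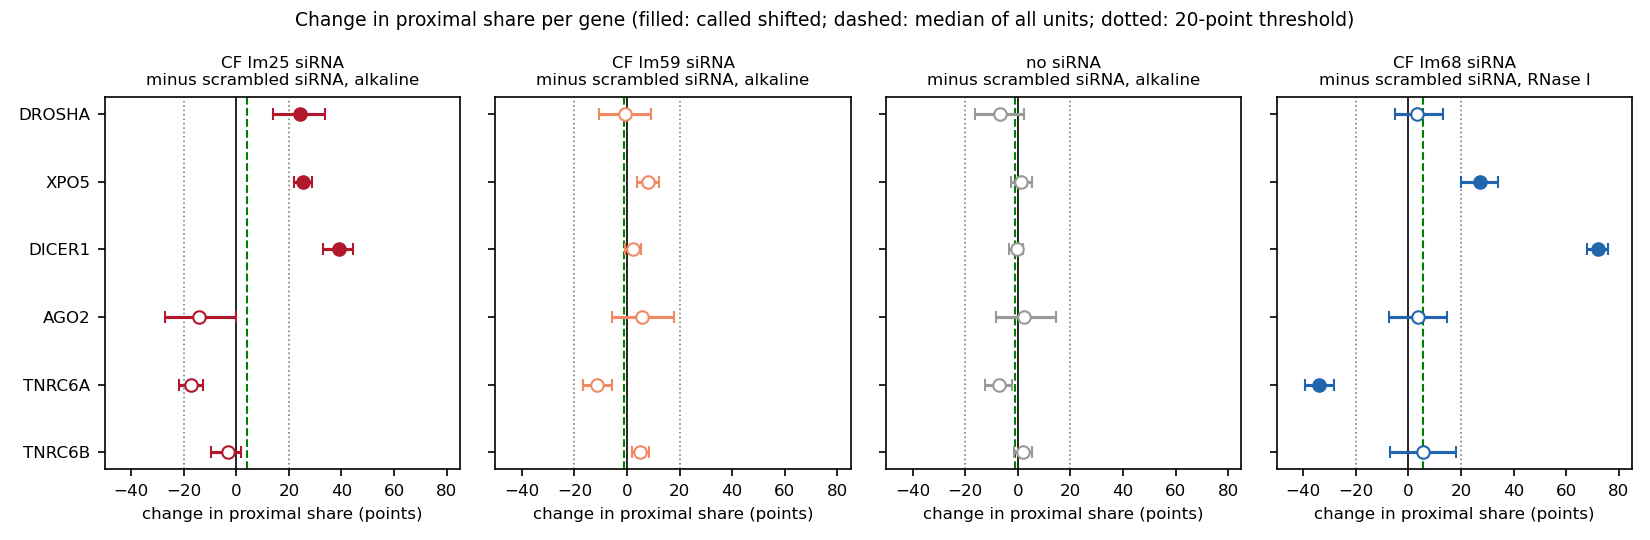
Change in proximal share (siRNA or no siRNA minus scrambled, in percentage points) for each gene with 95% Newcombe intervals that cover counting error only; filled points are called shifted, the dashed line is the median of all tested units, each by the pair of its own unit, and the dotted lines are the 20-point threshold. DICER1 lies at +38.9 points for CF Im25 siRNA and +72.2 for CF Im68 siRNA, TNRC6A at -34.1 after CF Im68 siRNA, and no point is filled for CF Im59 siRNA or no siRNA. AGO2 and TNRC6B are drawn by the pair of their whole window, and by the pair of the unit with most reads they stand at +63.6 and +45.3 points after CF Im68 siRNA. For AGO2 that change starts from 4.40% in the scrambled RNase I library, below the share of every other library.

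Total 3' ends were compared next, as a measure of the level of each transcript relative to the library. Since CPM is a share of the library, a change in a transcript and an opposite change in the rest of the library cannot be told apart. Each library pools the cells of a culture, so fewer cells with a transcript and less of it per cell cannot be told apart either. The total of a gene counts every read of its window, while that of a unit counts reads at its kept sites only. For TNRC6B, kept sites held 59.0% (CF Im68 siRNA) to 86.3% (CF Im59 siRNA) of the window's reads. After CF Im25 siRNA, AGO2 was called higher (1 of 6, against 13.1% of 14983 units) and TNRC6B lower (1 of 6, against 12.1%). After CF Im59 siRNA 0 of 6 were higher (8.61% of 15257 units) and TNRC6A was lower (1 of 6, against 11.1%). Without siRNA 0 of 6 were higher (4.29% of 16791 units) and TNRC6A was lower (1 of 6, against 4.3%). After CF Im68 siRNA 0 of 6 were higher (11.2% of 13531 units) and TNRC6B was lower (1 of 6, against 6.96%). The median log2 ratio over the 6 genes was 0.08 after CF Im25 siRNA, -0.19 after CF Im59 siRNA, -0.38 without siRNA and -0.16 after CF Im68 siRNA. Over all units it was -0.001, -0.06, -0.04 and 0.08 in the same order.

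TNRC6B totals were below the scrambled library in each comparison and called lower in 2 of the 4. Its total was 49.1 CPM after CF Im25 siRNA, 81.6 after CF Im59 siRNA, 76.0 without siRNA and 122 with scrambled siRNA. It was 39.0 CPM after CF Im68 siRNA and 87.9 CPM in its scrambled library. The ratio was 0.404 (0.362 to 0.451) after CF Im25 siRNA, 0.671 (0.614 to 0.734) after CF Im59 siRNA, 0.626 (0.576 to 0.680) without siRNA and 0.443 (0.386 to 0.509) after CF Im68 siRNA. The scrambled alkaline library thus stood above all 3 libraries compared with it, the one without siRNA included. Against no siRNA the ratio after CF Im25 siRNA was 0.646 (0.580 to 0.718), which is under the 2-fold call. With TMM scaling, which moved the log2 ratio after CF Im68 siRNA to -0.99, the CF Im68 call was lost too.

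TNRC6A totals differed between the alkaline libraries with scrambled siRNA and without siRNA. They were 100.2 CPM after CF Im25 siRNA, 50.2 after CF Im59 siRNA, 47.6 without siRNA and 106 with scrambled siRNA. The ratio to scrambled siRNA was 0.945 (0.863 to 1.04) after CF Im25 siRNA, 0.474 (0.426 to 0.526) after CF Im59 siRNA and 0.449 (0.408 to 0.494) without siRNA. The CF Im59 library was thus as low as the library without siRNA, at 1.06 times its level (0.946 to 1.18). Against no siRNA the CF Im25 library was 2.11 times higher (1.91 to 2.32), so the call and its direction depend on which control is used. The CF Im59 call was also lost with TMM scaling (log2 ratio -0.98). In the RNase I pair the total was 94.0 CPM after CF Im68 siRNA and 123 CPM with scrambled siRNA.

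The AGO2 call depends on the window. Inside it the total was 42.0 CPM after CF Im25 siRNA, 15.2 after CF Im59 siRNA, 12.6 without siRNA and 17.2 with scrambled siRNA, a ratio of 2.45 (2.02 to 2.97) for CF Im25 siRNA. With the downstream ends included the totals were 88.9 CPM after CF Im25 siRNA and 73.4 CPM with scrambled siRNA, a ratio of 1.21 (1.09 to 1.34) and no call. For CF Im68 siRNA the total inside the window was 43.6 CPM, against 31.8 CPM with scrambled siRNA, a ratio of 1.37 (1.14 to 1.66). With the downstream ends it was 51.9 CPM, against 84.3 CPM, a ratio of 0.616 (0.541 to 0.702). The direction after CF Im68 siRNA therefore turned with the window.

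No total of DROSHA or XPO5 was called in the 4 comparisons. DROSHA was at 28.1 CPM after CF Im25 siRNA, 33.8 after CF Im59 siRNA, 30.7 without siRNA and 28.0 with scrambled siRNA, and at 29.4 CPM after CF Im68 siRNA and 35.4 CPM in its scrambled library. Its ratios ran from 0.830 to 1.21. XPO5 was at 162 CPM after CF Im25 siRNA, 125 after CF Im59 siRNA, 115 without siRNA and 143 with scrambled siRNA, and at 83.6 CPM after CF Im68 siRNA and 86.2 CPM in its scrambled library. Its ratios ran from 0.802 to 1.13. The shifts of these genes to the proximal site thus came without a called change of the total. DICER1 was the gene whose total stood highest against its scrambled library after CF Im68 siRNA, at a log2 ratio of 0.91. With TMM scaling, which moved it to 1.09, that total was called higher.

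**Figure D5:**
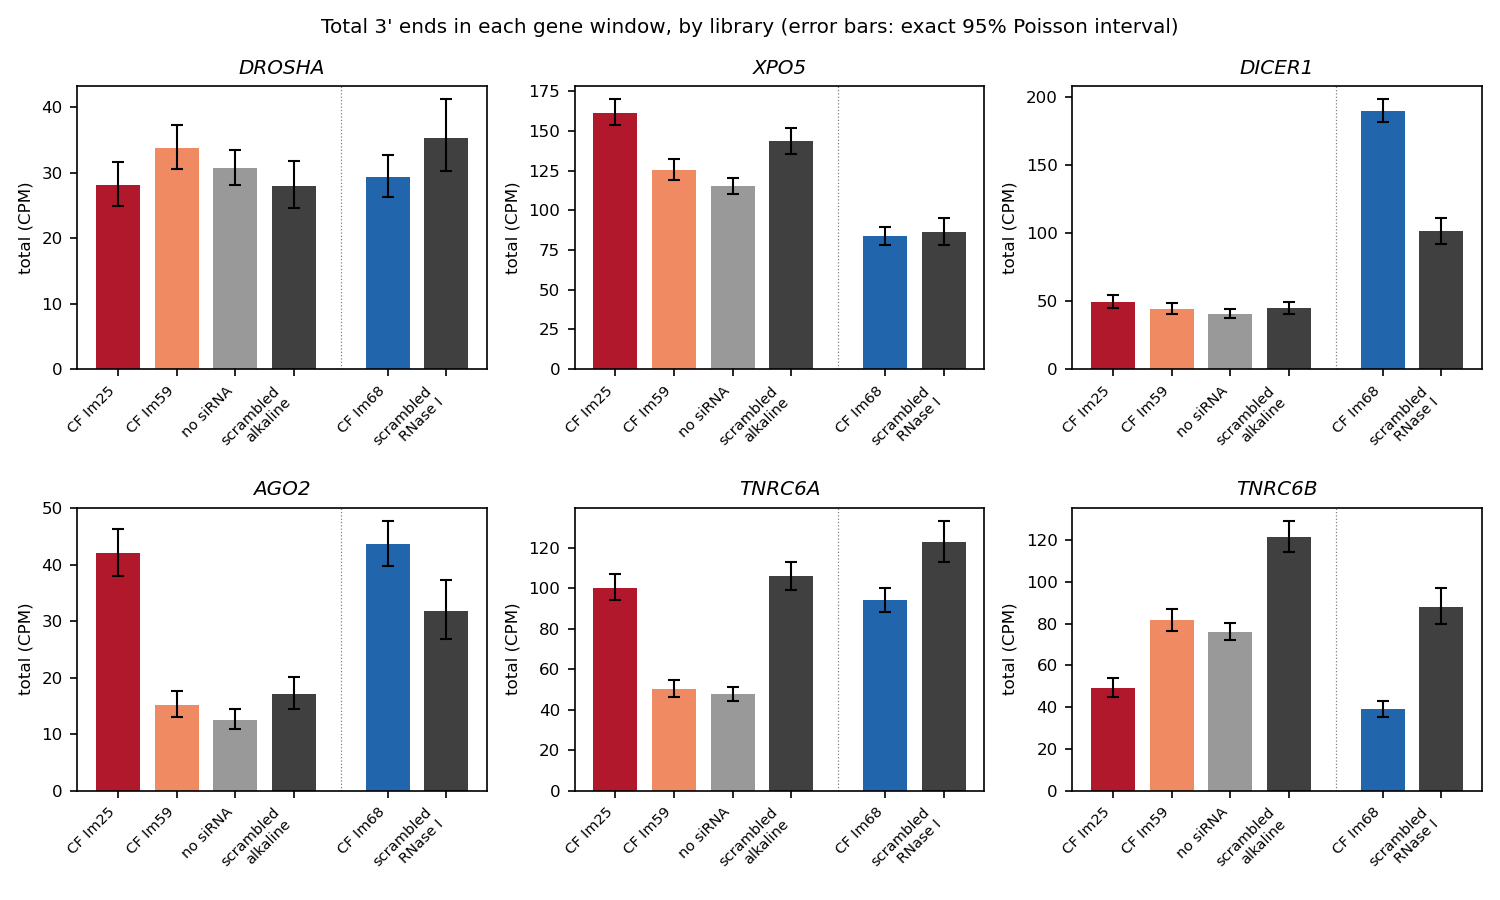
Total CPM in the window of each gene in each library, with exact 95% Poisson intervals that cover counting error only; the dotted line separates alkaline libraries (left) from RNase I libraries (right). TNRC6B stands at 49.1 CPM after CF Im25 siRNA and 39.0 CPM after CF Im68 siRNA, below its scrambled bars of 122 and 87.9 CPM, and TNRC6A stands at 50.2 CPM after CF Im59 siRNA and 47.6 CPM without siRNA.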

How the data were processed

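A-seq counts the 3' ends of polyadenylated RNA. The deposited files hold unscaled whole-number counts of reads per nucleotide and strand, 1 file per library. The submitters' processing notes name hg19 and GRCh37. How reads were aligned and filtered, and whether duplicates or internally primed reads were removed, is not given in the sources used here.

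Sites were called once on the 6 libraries pooled at equal weight (Python 3.11.15, numpy 2.4.6, pandas 2.3.3, scipy 1.17.1). Of 2438055 positions, 49695 nuclear sites were kept. Sites with gaps of at most 5000 nt formed a unit, and 8999 of 28114 units gave a pair of sites with at least 5% of the unit each. Apart from the site minimum, CPM was scaled to reads in nuclear sites, 84.3% to 91.2% of a library. Intervals are Newcombe for differences of shares, Clopper-Pearson for shares, exact Poisson for totals and exact conditional binomial for ratios. They cover counting error only, and copies made by PCR can make them too narrow. The rules were run on simulated counts with planted changes beyond the call thresholds. These counts held counting error only, so this check of the code says nothing about spread between libraries. edgeR 4.0.16 gave TMM factors for 1 alternative, and no count model was fitted since each group held 1 library. The 6 genes, the windows and the rules were chosen with earlier results of these data known. All 6 genes of the rule are named. No genome or annotation of hg19 was used, so coordinates are the files' own, GENCODE 29 (GRCh38) gave only lengths and motif counts, and DGCR8, RAN, TARBP2, PRKRA, AGO1, AGO3, AGO4 and TNRC6C were not analysed here. The pair within the last-exon length and the longer AGO2 window were added after seeing the data.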

Additional observations from a re-analysis of the deposited data

How the results depend on the processing

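With 1 library per group no replicate could be left out, and no setting bears on the spread between libraries. No paired analysis was possible because each group held a single library. The 24 changes in proximal share stayed on their side of the call with a half-width of 10 nt, a site minimum of 0.5 or 2 CPM, no minimum or 100 reads, and thinning of each library to the smallest total. A half-width of 50 nt called AGO2 distal after CF Im25 siRNA (1 gene). A threshold of 10 points called 2 genes distal after CF Im25 siRNA (AGO2, TNRC6A) and 1 after CF Im59 siRNA (TNRC6A). The share of all units called was taken only at the main thresholds and controls. Counts under another threshold or control thus have no background beside them, and the shares given earlier do not apply to them. The most used unit of each window gave 4 proximal calls for CF Im68 siRNA (DICER1, AGO2, XPO5, TNRC6B). Against no siRNA, DICER1, DROSHA and XPO5 were again the 3 genes with a proximal call for CF Im25 siRNA, and 0 genes had one for CF Im59 siRNA. The pair within the annotated last-exon length of the last kept site called AGO2 as well after CF Im68 siRNA, 3 genes in all. With the longer AGO2 window a different AGO2 pair was taken, with both sites in the downstream group. This other pair changed by -3.93 points (-18.0 to 11.2) after CF Im68 siRNA, and 2 genes were called (DICER1, XPO5). It leaves out the near group, whose own pair changed by +63.6 points (54.8 to 69.7), from a low scrambled share of 4.40%. Nor does it set the near group against the downstream group, where the near share changed by +50.9 points (44.5 to 56.6). Shares of single sites moved in 27 cases with 10 nt and 4 with 50 nt, although the calls above held with 10 nt.

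Totals moved more. TMM scaling raised every log2 ratio by 0.18 for CF Im68 siRNA, 0.11 for no siRNA, 0.10 for CF Im59 siRNA and 0.01 for CF Im25 siRNA, and with it XPO5 stood at 0.14 after CF Im68 siRNA in place of -0.04. After CF Im59 siRNA, 0 genes were lower with TMM scaling, median-of-ratios scaling, thinning or no siRNA as control. After CF Im68 siRNA, 1 gene (DICER1) was higher with TMM, median-of-ratios or a 1.5-fold threshold, and 0 were lower with TMM. Without siRNA, 2 genes were lower at 1.5-fold (TNRC6A, TNRC6B) and 2 after thinning (AGO2, TNRC6A). Against no siRNA, 2 genes were higher after CF Im25 siRNA (AGO2, TNRC6A) and 0 lower. With the longer AGO2 window 0 were higher after CF Im25 siRNA. The TNRC6A log2 ratio reversed against no siRNA, to 1.07 after CF Im25 siRNA and 0.0778 after CF Im59 siRNA. The cause was not tested. Shares on fewer than 50 reads could not be called at this depth. This held for the AGO2 pair within the near group in the alkaline comparisons. The whole-window pair of AGO2 had 63 to 97 reads in the alkaline libraries and was tested.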
